A study of Mus musculus with 20 samples.

Results

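The genes described are the pore-forming and auxiliary subunits of voltage-gated sodium and calcium channels measured in cultured mouse cortical neurons. They were taken by symbol: the Scn genes with a number and the letter a or b, and the Cacna1, Cacna2d, Cacnb and Cacng genes. Of the 14700 gene symbols in the 4 deposited tables, 28 such genes are described: 5 Scn alpha genes, 2 Scn beta genes, 8 Cacna1 genes, 3 Cacna2d genes, 4 Cacnb genes and 6 Cacng genes. Each of the 28 was in all 4 tables.

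RNA sequencing was performed on 20 libraries of total RNA from primary cortical neurons, taken from mouse embryos at day 15 and cultured for 7 days. Wild-type (WT) cultures and cultures with a knockout (KO) of ciRS-7, the circular RNA of the Cdr1as locus, carried the same strain label, C57BL/6N-Cdr1asem1Nikr. For the last 12 h, cultures were held in normoxia with glucose at 25 mM and added pyruvate (N_WT and N_KO), or under oxygen and glucose deprivation (OGD; OGD_WT and OGD_KO) at 1% O2 in the same base medium without added glucose or pyruvate. Each group had 5 libraries, which the series calls biological replicates, and whether embryos were pooled is not given in the sources used here. Primary cortical cultures hold glia and dividing cells beside neurons, so each value is a mix over cell types.

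Sodium channels are built from 1 large alpha subunit, which forms the pore, and smaller beta subunits, which tune its gating and anchor it to adhesion and cytoskeletal proteins. High-voltage calcium channels are built from a Cacna1 pore, a cytoplasmic beta subunit that brings it to the membrane and an extracellular alpha-2-delta subunit. Most of the Cacng genes expressed in brain encode proteins that escort AMPA-type glutamate receptors to synapses. In ischemic neurons the membrane depolarises as ion pumps lose their energy supply, and sodium and calcium then enter in part through these channels.

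Promoter sequence is shown for 6 members that moved under OGD in both genotypes, since paralogs of 1 class went in opposite directions. RefSeq windows on build GRCm38.p6, from 250 bases before to 50 bases after an annotated start, matched 22 of the 28 genes, with 33 windows in all. Capitals mark CpG dinucleotides, and each sequence runs 5′ to 3′ on the strand of the gene. Scn2b, Scn2a, Cacna2d1 and Cacnb4 fell, and Scn1a and Cacnb2 rose. For Scn2a, Cacnb4 and Cacnb2, which have several annotated starts, the window at the most upstream start is printed.
Scn2b (chr9:45117626-45117925, plus strand): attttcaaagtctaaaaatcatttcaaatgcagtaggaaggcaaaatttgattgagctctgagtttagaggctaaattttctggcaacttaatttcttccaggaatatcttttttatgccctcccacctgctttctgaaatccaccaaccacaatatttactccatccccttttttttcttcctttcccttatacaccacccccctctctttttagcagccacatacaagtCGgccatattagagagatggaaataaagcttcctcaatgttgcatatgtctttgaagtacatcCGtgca
Scn2a (chr2:65620519-65620818, plus strand): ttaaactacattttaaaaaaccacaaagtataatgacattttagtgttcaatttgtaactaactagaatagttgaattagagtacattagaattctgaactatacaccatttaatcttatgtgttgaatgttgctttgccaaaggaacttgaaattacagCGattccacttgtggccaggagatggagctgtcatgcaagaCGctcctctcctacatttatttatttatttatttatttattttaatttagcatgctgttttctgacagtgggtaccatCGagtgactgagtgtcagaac
Cacna2d1 (chr5:15934441-15934740, plus strand): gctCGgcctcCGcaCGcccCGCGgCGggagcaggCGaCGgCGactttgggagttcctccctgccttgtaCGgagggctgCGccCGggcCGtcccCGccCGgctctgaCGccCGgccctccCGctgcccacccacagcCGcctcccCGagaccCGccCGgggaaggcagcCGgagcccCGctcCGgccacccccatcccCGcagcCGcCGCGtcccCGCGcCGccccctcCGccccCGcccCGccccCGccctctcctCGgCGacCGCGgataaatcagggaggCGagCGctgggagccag
Cacnb4 (chr2:52676094-52676393, minus strand): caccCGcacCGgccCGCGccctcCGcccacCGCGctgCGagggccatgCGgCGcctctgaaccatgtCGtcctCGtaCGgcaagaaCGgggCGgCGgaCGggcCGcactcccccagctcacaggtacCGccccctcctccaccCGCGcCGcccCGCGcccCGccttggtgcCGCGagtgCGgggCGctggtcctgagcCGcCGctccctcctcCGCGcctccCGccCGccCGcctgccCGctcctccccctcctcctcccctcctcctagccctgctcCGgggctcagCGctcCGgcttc
Scn1a (chr2:66440788-66441087, minus strand): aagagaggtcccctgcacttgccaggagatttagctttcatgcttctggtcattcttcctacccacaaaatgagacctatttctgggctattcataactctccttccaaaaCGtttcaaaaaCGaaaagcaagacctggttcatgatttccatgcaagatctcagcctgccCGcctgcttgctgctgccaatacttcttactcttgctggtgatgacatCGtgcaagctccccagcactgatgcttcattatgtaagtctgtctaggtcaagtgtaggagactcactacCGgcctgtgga
Cacnb2 (chr2:14604056-14604355, plus strand): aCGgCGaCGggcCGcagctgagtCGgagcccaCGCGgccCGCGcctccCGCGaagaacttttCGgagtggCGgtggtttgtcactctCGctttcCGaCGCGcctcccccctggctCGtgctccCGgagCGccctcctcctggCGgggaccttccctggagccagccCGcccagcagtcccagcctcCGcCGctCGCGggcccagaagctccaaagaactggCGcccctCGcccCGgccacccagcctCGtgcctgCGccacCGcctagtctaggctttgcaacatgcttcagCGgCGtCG
Both the genes that fell and those that rose had windows poor and windows rich in CpG. Among the fallers, the window held 2 CpG in Scn2b and 3 in Scn2a, against 42 in Cacna2d1 and 40 in Cacnb4. Among the risers, it held 5 CpG in Scn1a and 35 in Cacnb2. The median was 12 CpG over the 33 channel gene windows and 7 over all 32851 windows of the same length. The core of the hypoxia response element (ACGTG or GCGTG, either strand; it overlaps the E-box CACGTG) was found in 14 of the 33 channel gene windows (42.4%) and in 43.8% of all windows. It was present in the printed windows of Cacna2d1 and Cacnb2, and these letters are not in the other 4 printed windows. At the starts not printed, each Cacnb4 window held 1 such core, with 27 and 5 CpG. The unprinted windows of Cacnb2 (4 CpG) and Scn2a (9 CpG) held 0. The AP-1 site (TGACTCA or TGAGTCA, either strand) was found in 3.03% of the channel gene windows and 5.2% of all windows.

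Values are log2 CPM (reads of a gene relative to the depth of its library, scaled as the authors deposited them), within the table of each comparison. The deposited values had the extreme libraries of every gene pulled inward, and this clipping was undone. The reads recovered ranged from 7071506 to 16658617 per library. The genotype check held in all libraries: Cdr1as had 545 to 1912 reads in WT libraries and 2 to 16 in KO libraries. The libraries did not spread evenly. Over 9404 genes, the root mean square deviation from the group mean was 0.0739 to 0.131 log2 units in batches 1, 2 and 3.2, and 0.267 to 0.423 in batches 3.1 and 3.3. The root mean square of the mean deviation of a batch was smaller (0.0208 to 0.0405) than independent libraries would give (0.053 to 0.135), and same-numbered N and OGD libraries of a genotype, called a culture here, mostly deviated in opposite directions (correlations from -0.74 to 0.06). Whether the values had been adjusted for batch is not given in the sources used here, so libraries may not vary independently, and the bearing of this on the p-values was not tested.

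Under OGD the pore genes of sodium channels and the calcium channel beta genes held members of either direction. Scn2b, Scn3b, Scn2a, Cacna2d1, Cacna2d2, Cacnb1, Cacnb4 and Cacng2 fell in both genotypes, while Scn1a, Cacnb2 and Cacna1g rose in both. In WT cultures 13 of 28 members passed the test (adjusted p under 0.05 over all genes), 4 higher and 9 lower; over all genes the share called was 44.3%, with 21.6% higher and 22.8% lower. In KO cultures 11 of 28 members passed, 3 higher and 8 lower, against 40.9% of all genes, 21% higher and 19.9% lower. The share of members that passed was therefore near that of all genes in both genotypes. Members past the threshold with at least a 2-fold difference numbered 5 of 28 in WT (9.53% of all genes) and 5 of 28 in KO (8.66% of all genes). They were the same genes in both: Scn2b, Cacng2, Scn3b, Cacnb4 and Scn2a, all lower. The median log2 difference was -0.17 over the members and -0.03 over all genes in WT, and -0.19 and 0.00 in KO. The plot of log2 fold changes by subunit class shows the members side by side.

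**Figure D1:**
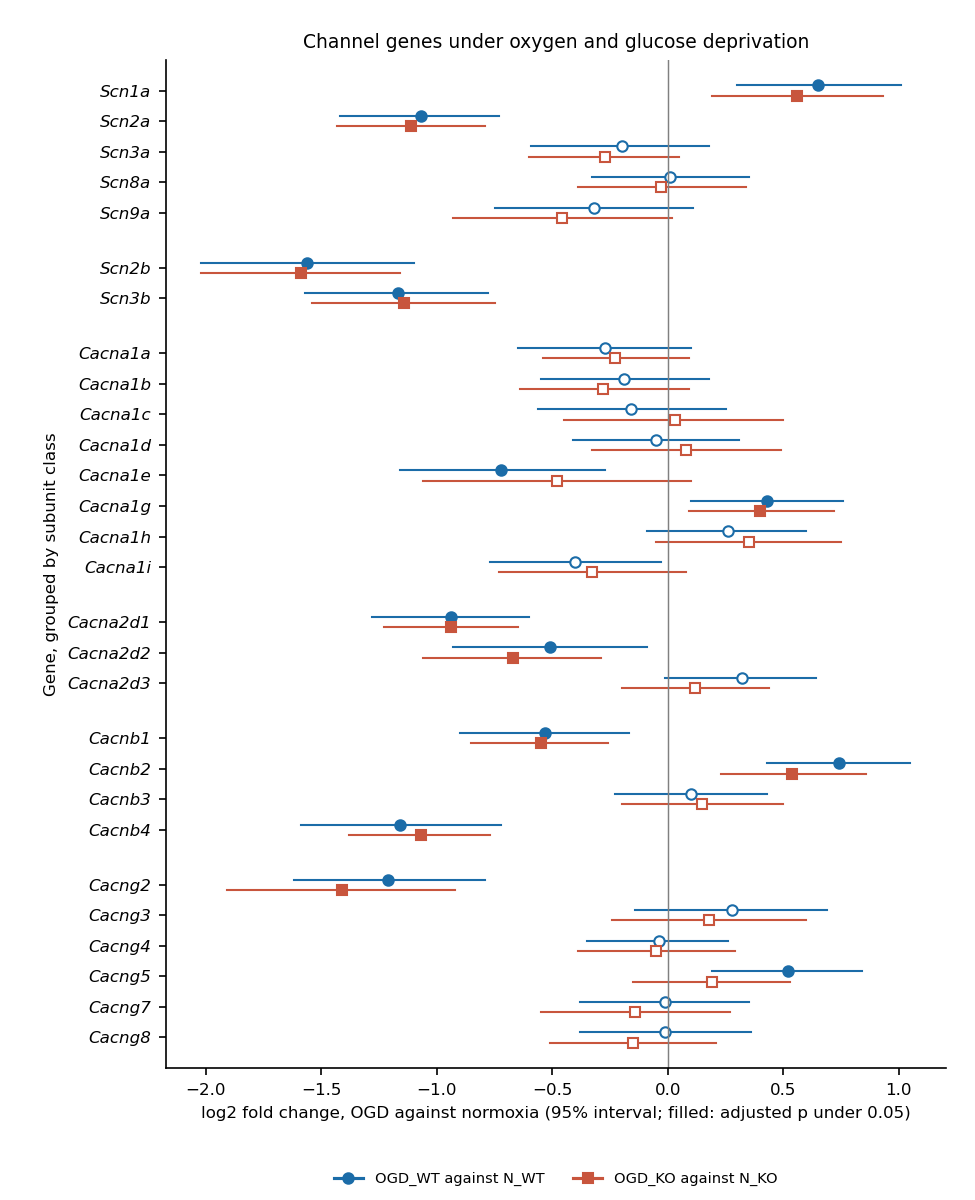
Log2 fold change of each channel gene under OGD against normoxia (x axis; points with 95% intervals, filled where the adjusted p was under 0.05), for WT (circles) and KO cultures (squares), with genes grouped by class. Scn2b lies farthest to the left at -1.56 in WT and -1.59 in KO, and Scn1a, Cacnb2 and Cacna1g are the filled points to the right of 0 in both genotypes.

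The groups did not overlap for 7 of 28 members in WT (26.9% of all genes) and for 8 of 28 in KO (25.8% of all genes). All 11 members called in KO were also called in WT, where they made up 84.6% of the calls, and each went the same way in both genotypes. The same overlap over all genes was not computed, so whether the members differ from other genes in this is not known. Cacna1e and Cacng5 passed in WT alone, and 15 of the 28 members passed in neither. Among cultures of batch 3 alone, 11 members passed in WT (34.5% of all genes) and 6 in KO (16.3% of all genes). In batches 1, 2 and 3.2 alone, with 2 cultures per genotype, 17 passed in WT (57.2% of all genes) and 18 in KO (56.8% of all genes). Cacna1e and Cacng5 were among these 18. Within a single batch, 2 cultures could be tested in each genotype. In batch 3.3 alone 5 members passed in WT (10.7% of all genes): Scn2b, Cacng2, Cacnb4, Scn3b and Scn2a. In batch 3.1 alone 0 passed in KO (5.47% of all genes), with 7 at an unadjusted p under 0.05. No called member changed direction in these subsets, and the member counts moved with the share of all genes called.

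Some markers of cell types moved with OGD as well. Over all genes, 21.6% were higher and 22.8% lower in WT, and 21% and 19.9% in KO. Of 12 neuron markers, 6 were lower and 0 higher in each genotype, and their summed level was 6510 to 7900 CPM in N_WT and 4310 to 6630 in OGD_WT (6910 to 7080 in N_KO and 4610 to 5580 in OGD_KO). Of 8 measured astrocyte markers, 5 were higher and 1 lower in WT (4 and 0 in KO), with sums of 1120 to 1420 CPM in N_WT and 1810 to 2260 in OGD_WT (865 to 1560 in N_KO and 1470 to 2280 in OGD_KO). Of 7 progenitor markers, 3 were higher and 1 lower in WT (3 and 0 in KO), with sums of 591 to 784 CPM in N_WT and 977 to 1560 in OGD_WT. The interneuron sum overlapped between conditions (361 to 455 CPM in N_WT and 321 to 478 in OGD_WT). There 2 of 9 genes were lower and 0 higher in each genotype, with the lower count near the share of all genes lower. In the oligodendrocyte lineage 7 of 8 genes were measured, of which 1 was higher and 2 lower in WT (3 and 0 in KO), with sums of 282 to 350 CPM in N_WT and 324 to 481 in OGD_WT. Only Pdgfrb was measured of the 6 endothelial and mural markers (3.13 to 6.46 CPM in N_WT and 2.27 to 3.09 in OGD_WT), and the muscle and fibroblast sum was 9.96 to 15.1 CPM in N_WT and 21.1 to 25.8 in OGD_WT. Of the 8 microglia markers 0 were measured. Between genotypes, 0 markers of any list passed (0.0353% of all genes in normoxia and 0.0282% under OGD). In bulk RNA, fewer neurons and less channel RNA per neuron cannot be told apart, and the part of these shifts in the channel results was not tested.

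Per exon length, the members spanned a wide range of levels in normoxia. In N_WT, Cacng4, a carrier of AMPA receptors, was highest at 5.64 ± 0.24 log2 CPM per kb (SD, n = 5), followed by Scn2a at 5.21 ± 0.24, Cacna2d1 at 5.18 ± 0.21 and Scn3b at 4.48 ± 0.22. Scn2a and Cacna2d1 differed by less than their SD. The leading pore genes of calcium channels in N_WT were Cacna1e at 4.30 ± 0.30, Cacna1b at 4.21 ± 0.40 and Cacna1a at 3.75 ± 0.34 log2 CPM per kb, whose ranges overlapped in part. Scn9a, known from peripheral sensory neurons, was lowest at -2.09 ± 0.41 in N_WT, with 12 to 39 reads per library over N_WT and OGD_WT. In OGD_WT, Cacng4 was at 5.60 ± 0.11, while Scn2a (4.13 ± 0.32), Cacna2d1 (4.24 ± 0.30) and Cacnb3 (4.24 ± 0.33) lay at nearly 1 level. The plot of levels per exon length gives the 4 groups.

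**Figure D2:**
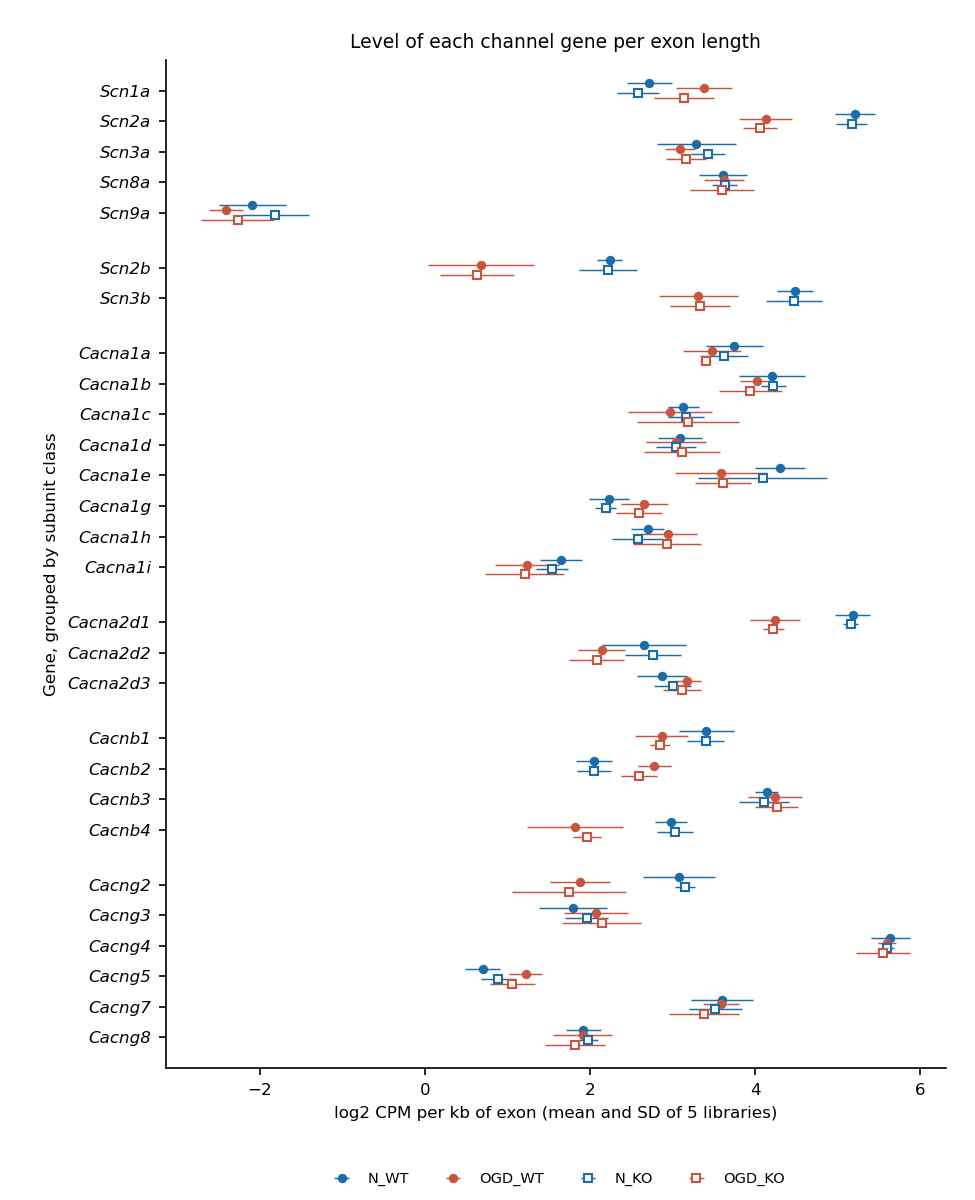
Level of each channel gene in log2 CPM per kb of exon (x axis; mean and SD of 5 libraries) in N_WT, OGD_WT, N_KO and OGD_KO, with genes grouped by class. In N_WT the genes run from -2.09 (Scn9a) to 5.64 (Cacng4), and the OGD means of Scn2a, Scn2b, Scn3b and Cacna2d1 lie to the left of the normoxia means.

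Among the sodium channel pore genes, Scn2a fell and Scn1a rose. Scn2a encodes the main alpha subunit of axons of young excitatory cortical neurons and lies at chr2:65620771-65767447 (mm10, plus strand). In N_WT it was at 8.29, 8.24, 8.37, 8.81 and 8.23 log2 CPM in replicates 1 to 5, and in OGD_WT at 7.26, 6.80, 7.34, 7.57 and 7.58. Every OGD_WT library lay below every N_WT library. The difference was -1.07 ± 0.17 (SE), 2.11-fold lower (limma, adjusted p = 3.05e-05). In N_KO, Scn2a was at 8.37, 8.02, 8.39, 8.47 and 8.50, and in OGD_KO at 7.39, 7.54, 7.16, 7.09 and 7.03. Again the groups did not overlap, and the difference was -1.11 ± 0.16 (SE), 2.16-fold lower (adjusted p = 2.2e-05). In batch 3.1 alone it was -0.93 in KO (adjusted p = 0.182).

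Scn1a, best known from inhibitory interneurons and as the gene of Dravet syndrome, lies on the minus strand at chr2:66270778-66440840 (mm10), with a gap of 503.3 kb to Scn2a and of 39.24 kb to Scn9a. In N_WT it was at 5.57, 5.49, 5.94, 5.99 and 6.08 log2 CPM, and in OGD_WT at 6.66, 6.14, 6.33, 6.97 and 6.23. All OGD_WT libraries lay above all N_WT libraries, by a narrow margin between the highest of N_WT and the lowest of OGD_WT. The difference was 0.65 ± 0.17 (SE), 1.57-fold higher (adjusted p = 0.00404). In N_KO, Scn1a was at 5.61, 5.35, 5.62, 5.76 and 6.03, and in OGD_KO at 6.35, 6.75, 6.30, 5.95 and 5.82, so that replicates 4 and 5 of OGD_KO fell within the N_KO range. The KO difference was 0.56 ± 0.18 (SE; adjusted p = 0.0163), which did not pass with replicate as a block (adjusted p = 0.0563) or in batch 3 cultures alone (0.46, adjusted p = 0.344). Per exon length, Scn2a and Scn1a stood at 5.21 and 2.72 log2 CPM per kb in N_WT and at 4.13 and 3.38 in OGD_WT.

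Scn8a, Scn3a and Scn9a did not pass. Scn8a, which takes over at the axon initial segment as neurons mature, had log2 differences of 0.01 in WT (95% interval -0.33 to 0.35) and -0.03 in KO (-0.39 to 0.34). Scn3a, the alpha gene of the embryonic brain, lies 53.14 kb from Scn2a and had differences of -0.20 in WT (-0.59 to 0.18) and -0.27 in KO (-0.60 to 0.05). Scn9a had -0.32 in WT (-0.75 to 0.11) and -0.46 in KO (-0.93 to 0.02). In batches 1, 2 and 3.2 alone, Scn3a and Scn9a passed in both genotypes and Scn8a in KO (57.2% of all genes in WT and 56.8% in KO). The 4 neighbours on chromosome 2 thus differed in direction, with Scn2a lower, Scn1a higher, and Scn3a and Scn9a short of the threshold.

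The sodium channel beta genes Scn2b and Scn3b fell in both genotypes. Scn2b, whose product is bound to alpha subunits by a disulfide bridge, had the largest fall of all members and lies at chr9:45117782-45130070 (mm10, plus strand). In N_WT it was at 4.39, 4.63, 4.58, 4.25 and 4.44 log2 CPM, from 162 to 358 reads per library. In OGD_WT it was at 2.94, 2.03, 2.84, 2.84 and 3.85, from 39 to 138 reads. The groups did not overlap, and OGD_WT spread more widely than N_WT (SD 0.64 against 0.15). The difference was -1.56 ± 0.22 (SE), 2.94-fold lower (adjusted p = 1.05e-05). In N_KO, Scn2b was at 4.42, 4.24, 4.46, 4.09 and 5.00, and in OGD_KO at 3.07, 2.74, 2.90, 3.37 and 2.16. Replicate 5 was the highest of N_KO and the lowest of OGD_KO. The KO difference was -1.59 ± 0.21 (SE), 3.02-fold lower (adjusted p = 9.95e-06). In batch 3 cultures alone the difference was -1.59 in WT and -1.68 in KO. In batch 3.1 alone it was -1.11 in KO and did not pass (adjusted p = 0.0714).

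Scn3b, a beta gene whose product binds alpha subunits without a disulfide bridge, lies at chr9:40269217-40291618 (mm10, plus strand). It was at 6.69, 6.64, 6.67, 6.96 and 6.34 log2 CPM in N_WT and at 5.31, 4.78, 5.53, 5.78 and 6.05 in OGD_WT. The groups did not overlap, and the difference was -1.17 ± 0.19 (SE), 2.25-fold lower (adjusted p = 4.65e-05). In N_KO it was at 6.73, 6.08, 6.77, 6.66 and 7.00, and in OGD_KO at 5.63, 6.07, 5.35, 5.34 and 5.13. Replicate 2 nearly closed the gap from both sides, and the KO difference was -1.14 ± 0.19 (SE; adjusted p = 0.000116); in batch 3.1 alone it was -0.66 (adjusted p = 0.372). Per exon length, Scn3b stood at 4.48 log2 CPM per kb in N_WT, above Scn2b at 2.24, and they stood at 3.31 and 0.68 in OGD_WT.

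**Figure D3:**
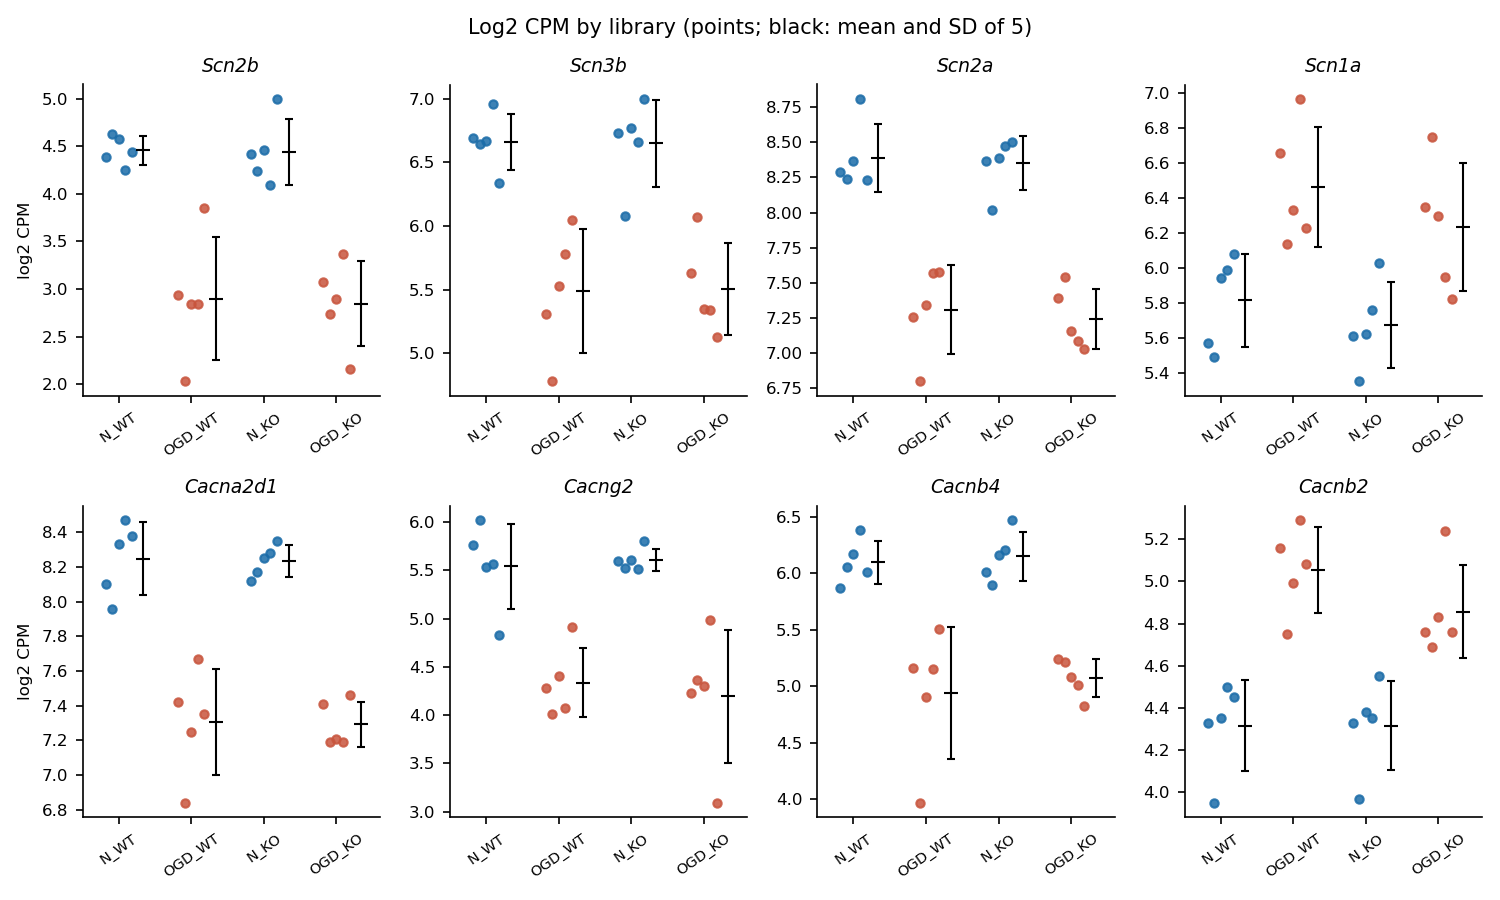
Log2 CPM of 8 channel genes in every library (y axis), for N_WT and OGD_WT from 1 table and N_KO and OGD_KO from another, with replicates 1 to 5 drawn from left to right within a group and the mean and SD in black. Scn2b, Scn3b, Scn2a, Cacna2d1 and Cacnb4 show no overlap between OGD and normoxia in either genotype, while Scn1a overlaps in KO and Cacng2 in WT.

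Of the 8 pore genes of calcium channels, 1 was higher and 1 lower in WT, and 1 was higher in KO. Cacna1e, which encodes the R-type pore, was at 8.21, 8.09, 8.18, 7.95 and 8.75 log2 CPM in N_WT and at 7.43, 7.31, 7.51, 6.91 and 8.42 in OGD_WT, lower in all 5 same-numbered pairs but with replicate 5 of OGD_WT inside the N_WT range. The difference was -0.72 ± 0.21 (SE; adjusted p = 0.00942). In KO it was -0.48 ± 0.28 (SE; adjusted p = 0.176), with N_KO libraries from 7.15 to 8.94. The difference between the genotypes' responses was 0.21 ± 0.44 (SE; unadjusted p = 0.628).

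Cacna1g, which encodes a low-voltage T-type pore, rose by the smallest amount of the called members: 0.43 ± 0.16 (SE; adjusted p = 0.0346) in WT and 0.40 ± 0.15 (adjusted p = 0.0388) in KO. It did not pass with replicate as a block (adjusted p = 0.0609 in WT and 0.0732 in KO) or with batch as a covariate (0.0609 and 0.0887). In batches 1, 2 and 3.2 alone it was at 0.33 in WT (adjusted p = 0.057) and 0.17 in KO (0.0906). In KO it was at 0.56 in batch 3 cultures alone (adjusted p = 0.218) and 0.15 with library weights (0.068), and in WT at 0.20 in batch 3.3 alone (0.809). Nor did it pass when 1 library was left out in 6 of 10 fits in WT (replicates 2, 3 and 5 of OGD_WT and 3, 4 and 5 of N_WT; adjusted p up to 0.0892). In KO it failed in 8 of 10 (each N_KO replicate and replicates 1, 2 and 5 of OGD_KO; up to 0.0871). The other T-type genes had differences of 0.26 (WT) and 0.35 (KO) for Cacna1h and -0.40 and -0.33 for Cacna1i, short of the threshold. Some alternative fits called Cacna1i, among them WT with replicate as a block. The genes of the L-type pores Cacna1c and Cacna1d, the N-type pore Cacna1b and the P/Q-type pore Cacna1a had differences between -0.28 and 0.08 in the 2 genotypes, and none passed in the main fits. In batches 1, 2 and 3.2 alone, Cacna1a, Cacna1b and Cacna1i passed in both genotypes (57.2% of all genes in WT and 56.8% in KO). Cacna1a and Cacna1h passed in WT without replicate 4 of OGD_WT (45% of all genes).

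Of the alpha-2-delta genes, Cacna2d1 and Cacna2d2, the targets of gabapentin-like drugs, fell. Cacna2d1 lies at chr5:15934691-16374511 (mm10, plus strand). It was at 8.10, 7.96, 8.33, 8.47 and 8.38 log2 CPM in N_WT and at 7.42, 6.84, 7.25, 7.67 and 7.35 in OGD_WT. In N_KO it was at 8.12, 8.17, 8.25, 8.28 and 8.35, and in OGD_KO at 7.41, 7.19, 7.21, 7.19 and 7.46. In both genotypes the groups lay clearly apart. The difference was -0.94 ± 0.16 (SE; adjusted p = 9.2e-05) in WT and -0.94 ± 0.14 (adjusted p = 3.54e-05) in KO, 1.92-fold lower in each. Within a single batch Cacna2d1 did not pass. It was at -0.96 in WT in batch 3.3 alone (adjusted p = 0.115) and at -1.04 in KO in batch 3.1 alone (adjusted p = 0.12).

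Cacna2d2 fell by 0.51 ± 0.20 (SE; adjusted p = 0.0458) in WT and by 0.67 ± 0.18 (adjusted p = 0.00666) in KO. In WT the call was lost in 8 of 10 fits without 1 library (replicates 1, 3, 4 and 5 of OGD_WT and 1, 2, 3 and 4 of N_WT; adjusted p up to 0.148). It did not pass in batch 3 cultures alone in either genotype (adjusted p = 0.169 in WT and 0.239 in KO). Cacna2d3 had differences of 0.32 (95% interval -0.01 to 0.64) in WT and 0.12 (-0.20 to 0.44) in KO and did not pass.

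Among the calcium channel beta genes, Cacnb4 and Cacnb1 fell and Cacnb2 rose. Cacnb4, the gene mutated in the lethargic mouse, lies at chr2:52428320-52676831 (mm10, minus strand). It was at 5.87, 6.06, 6.17, 6.38 and 6.01 log2 CPM in N_WT and at 5.16, 3.97, 4.91, 5.15 and 5.51 in OGD_WT, where replicate 2 was lowest. The groups did not overlap, and the difference was -1.16 ± 0.21 (SE), 2.23-fold lower (adjusted p = 0.000135). In N_KO it was at 6.01, 5.90, 6.16, 6.21 and 6.47, and in OGD_KO at 5.24, 5.22, 5.08, 5.01 and 4.83. The KO groups were likewise apart, with a difference of -1.07 ± 0.15 (SE; adjusted p = 1.6e-05). In batch 3.1 alone it was -0.94 in KO (adjusted p = 0.145).

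Cacnb2, the beta gene prominent in heart, lies at chr2:14603088-14987908 (mm10, plus strand). It was at 4.33, 3.95, 4.35, 4.50 and 4.45 log2 CPM in N_WT and at 5.16, 4.75, 4.99, 5.29 and 5.08 in OGD_WT. In N_KO it was at 4.33, 3.97, 4.38, 4.35 and 4.55, and in OGD_KO at 4.76, 4.69, 4.83, 5.24 and 4.76. Every OGD library was above every normoxia library in both genotypes. The difference was 0.74 ± 0.15 (SE), 1.67-fold higher (adjusted p = 0.00047) in WT, and 0.54 ± 0.15, 1.46-fold higher (adjusted p = 0.00778) in KO. The KO call was lost in batch 3 cultures alone (0.61, adjusted p = 0.163).

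Per exon length, Cacnb4 and Cacnb2 stood at 2.98 and 2.05 log2 CPM per kb in N_WT and at 1.82 and 2.78 in OGD_WT, so their order was reversed on this scale. In log2 CPM their OGD_WT means lay close, at 4.94 ± 0.58 and 5.05 ± 0.20 (SD). In OGD_KO they stood at 1.96 and 2.59 per kb, but at 5.08 and 4.86 log2 CPM. Cacnb1, the form shared with skeletal muscle, fell by 0.53 ± 0.18 (SE; adjusted p = 0.0182) in WT and by 0.55 ± 0.14 (adjusted p = 0.00446) in KO. Its WT call was lost with replicate as a block (adjusted p = 0.0554) and in 3 of 10 fits without 1 library (replicate 4 of OGD_WT and replicates 2 and 4 of N_WT; adjusted p up to 0.0579). In batch 3 cultures alone it passed in neither genotype (adjusted p = 0.0825 in WT and 0.319 in KO), and in batch 3.3 alone it was at -0.88 in WT (adjusted p = 0.139). Cacnb3, the highest of the 4 per exon length in each group, had differences of 0.10 (WT) and 0.15 (KO) and did not pass.

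In the Cacng class the fall was seen in Cacng2, which encodes stargazin, an escort of AMPA receptors. The gene lies at chr15:77991748-78120028 (mm10, minus strand). It was at 5.76, 6.02, 5.53, 5.57 and 4.83 log2 CPM in N_WT and at 4.28, 4.01, 4.41, 4.07 and 4.91 in OGD_WT. Replicate 5, the lowest of N_WT and the highest of OGD_WT, made the groups overlap. The difference was -1.21 ± 0.20 (SE), 2.31-fold lower (adjusted p = 5.37e-05), and Cacng2 was lower in 4 of 5 same-numbered pairs. In N_KO it was at 5.60, 5.52, 5.61, 5.51 and 5.80, and in OGD_KO at 4.23, 4.36, 4.30, 4.99 and 3.09. The KO groups did not overlap, and the difference was -1.41 ± 0.24 (SE), 2.66-fold lower (adjusted p = 0.000124); in batch 3.1 alone it was -0.84 (adjusted p = 0.209).

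The other AMPA receptor escorts of the class did not pass: Cacng3 had differences of 0.28 (WT) and 0.18 (KO), Cacng4 of -0.04 and -0.05, Cacng7 of -0.01 and -0.14, and Cacng8 of -0.01 and -0.15. For Cacng4, the member with the highest level per exon length, the 95% interval was -0.35 to 0.26 in WT and -0.39 to 0.29 in KO. Cacng5, a low-level relative that lies 80.05 kb from Cacng4, was higher by 0.52 ± 0.16 (SE; adjusted p = 0.011) in WT, and was at 0.32 in batch 3.3 alone (adjusted p = 0.692). In KO it was at 0.19 ± 0.16 (adjusted p = 0.377). The difference between the genotypes' responses was -0.37 ± 0.25 (SE; unadjusted p = 0.148).

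Genes linked to these channels were followed in 5 lists, which were chosen with earlier results of these data known. Their counts are therefore no independent test against the shares of all genes. Over all genes, 21.6% were higher and 22.8% lower in WT, and 21% and 19.9% in KO. Of 14 sodium channel partners and proteins of the axon initial segment, 5 were lower and 0 higher in WT (4 and 0 in KO), with a median log2 difference of -0.30 against -0.03 over all genes. Fgf12, an intracellular modulator of sodium channel inactivation, fell by 1.23 ± 0.17 (SE; adjusted p = 6.95e-06) in WT and by 1.41 ± 0.24 in KO. Cntn1, an adhesion partner of beta subunits, fell by 0.74 ± 0.16 (adjusted p = 0.00102) in WT. The scaffold genes of the segment, Ank3, Sptbn4 and Nfasc, named after their values were seen, had WT differences of -0.21, -0.16 and -0.13 and did not pass.

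Of 22 measured calcium channel partners and regulators, 4 were higher and 11 lower in WT (3 and 14 in KO). The shares over all genes were 21.6% higher and 22.8% lower in WT, and 21% and 19.9% in KO. The median log2 difference of these partners was -0.43 (WT) and -0.51 (KO). Gem and Rem2, small GTPases that bind calcium channel beta subunits and inhibit the channels, had the largest rises. Gem rose by 2.77 ± 0.19 (SE; adjusted p = 2.74e-10) in WT and by 2.63 ± 0.18 in KO. Rem2 rose by 1.36 ± 0.20 (adjusted p = 1.49e-05) in WT and by 1.14 ± 0.19 in KO. The largest falls were those of Necab1, a neuronal calcium-binding protein, at -1.89 ± 0.18 (adjusted p = 7.92e-08) in WT, and Stx1a, the presynaptic syntaxin that contacts calcium channels, at -1.07 ± 0.16 (adjusted p = 1.98e-05).

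Of 19 measured genes of calcium signalling below the channels, 1 was higher and 10 lower in WT (0 and 10 in KO), with medians of -0.41 and -0.62. For this and the next lists, the shares over all genes were 21.6% higher and 22.8% lower in WT, and 21% and 19.9% in KO. Calb1, the calcium buffer calbindin, was at -1.66 ± 0.18 (SE; adjusted p = 3.41e-07) in WT and at -1.66 ± 0.16 in KO. Camk4, a calmodulin-dependent kinase of the nucleus, was at -1.25 ± 0.17 (adjusted p = 4.58e-06) in WT, and Rasgrf1, a calcium-activated exchange factor, at 0.46 ± 0.17 (adjusted p = 0.0312) in WT and 0.07 ± 0.18 (adjusted p = 0.784) in KO. Of 8 AMPA receptor auxiliary genes outside the Cacng class, 3 were lower and 0 higher in each genotype. Cnih3 was at -0.87 ± 0.15 (adjusted p = 1e-04) and Shisa9 at -0.72 ± 0.19 (adjusted p = 0.00367) in WT. Of 4 measured genes of the sodium leak channel complex, Unc79 was higher by 0.55 ± 0.17 (adjusted p = 0.0131) and Fam155a was at -0.50 ± 0.16 (adjusted p = 0.0166) in WT, with the pore gene Nalcn at -0.23 and not past the threshold. None of the partner genes passed in either knockout comparison (0 called in each list, against 0.0353% of all genes in normoxia and 0.0282% under OGD).

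The knockout comparisons asked whether loss of ciRS-7 changed the channel genes at rest or under OGD. In normoxia 0 of 28 members passed in N_KO against N_WT (0.0353% of all genes), and 0 had an unadjusted p under 0.05. Under OGD 0 of 28 passed in OGD_KO against OGD_WT (0.0282% of all genes), again with 0 at an unadjusted p under 0.05; limma voom on the recovered reads also called 0 in both. With library weights, whose estimation stopped before convergence, 1 member passed in normoxia (6.54% of all genes) and 10 under OGD (33.5% of all genes). Over all genes, 1.81% in normoxia and 1.78% under OGD had an unadjusted p under 0.05. Both shares were below the 5% that the test would give with independent libraries and no difference, and the cause was not tested. The counts of 0 therefore do not show that the genotypes were equal. All 95% intervals lay within a 2-fold change. The widest reach was 0.80 for Scn9a in normoxia, with a difference of 0.31, and 0.81 for Cacna1c under OGD, with a difference of 0.23. For the members with the largest OGD falls, the normoxia difference was 0.00 (-0.30 to 0.30) in Scn2a, 0.02 (-0.31 to 0.35) in Scn2b, 0.02 (-0.32 to 0.36) in Scn3b, 0.09 (-0.20 to 0.38) in Cacnb4 and 0.10 (-0.26 to 0.46) in Cacng2. Under OGD it was -0.05 (-0.42 to 0.31) in Scn2a, -0.04 (-0.62 to 0.54) in Scn2b, 0.03 (-0.43 to 0.49) in Scn3b, 0.15 (-0.32 to 0.62) in Cacnb4 and -0.13 (-0.69 to 0.43) in Cacng2. Differences within these intervals are not settled by 5 libraries per group.

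**Figure D4:**
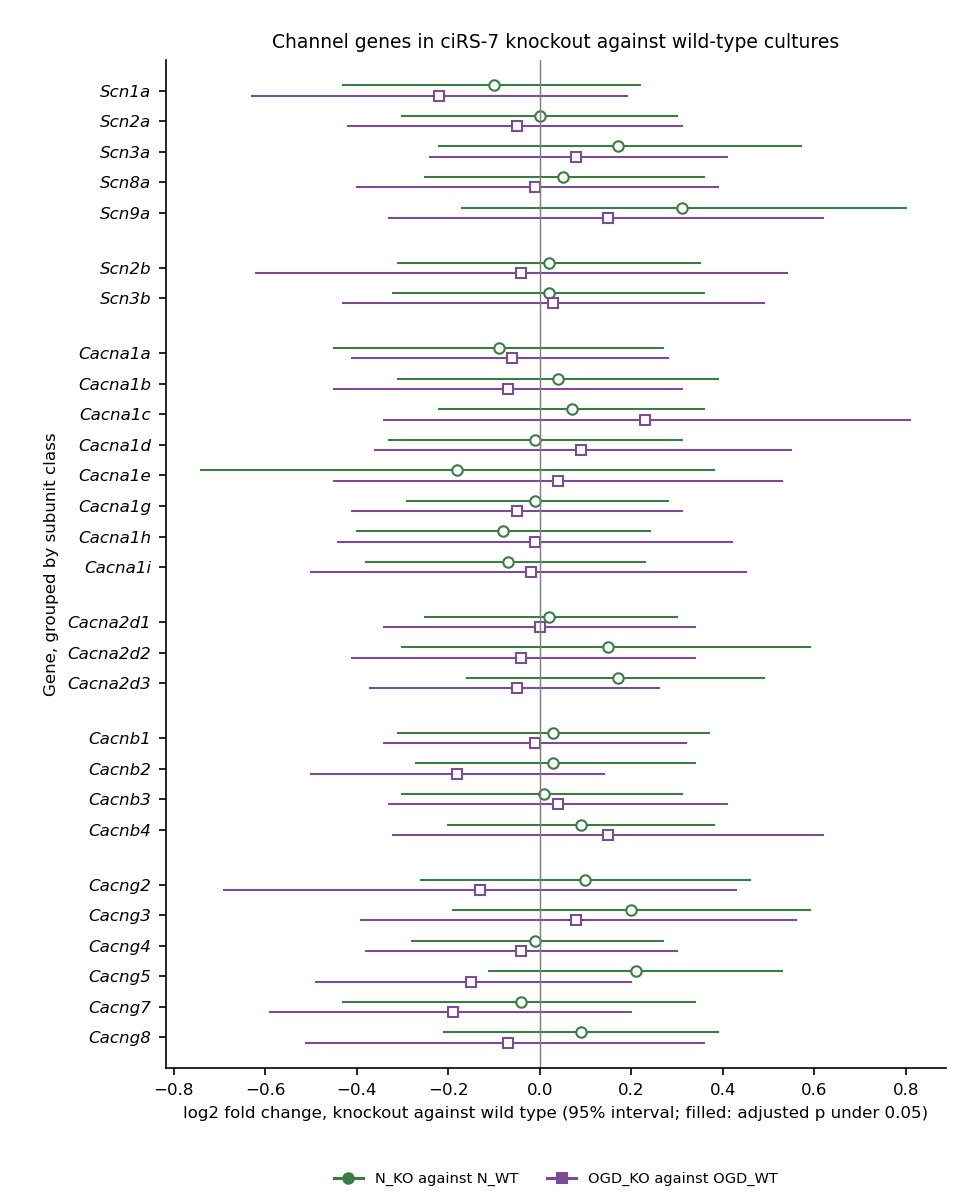
Log2 fold change of each channel gene in KO against WT cultures (x axis; points with 95% intervals, open because no adjusted p was under 0.05), in normoxia (circles) and under OGD (squares). The intervals include 0 for each gene, and the points run from -0.22 (Scn1a under OGD) to 0.31 (Scn9a in normoxia).

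Whether the response to OGD itself differed between genotypes was tested on all 20 libraries on 1 scale. Of 13688 genes 0 passed (0% called), and of 28 members 0 passed, with 0 at an unadjusted p under 0.05. Over all genes 99 (0.723%) had an unadjusted p under 0.05, and 1.14% without culture as a block, against 5% for a test at its nominal level. Whether the test is conservative in these data was not tested, so the counts of 0 do not show that the responses were equal. The KO response minus the WT response ranged from -0.37 in Cacng5 to 0.21 in Cacna1e on the log2 scale. It was -0.06 ± 0.36 (SE) in Scn2b, -0.06 ± 0.25 in Scn2a, 0.00 ± 0.31 in Scn3b, 0.06 ± 0.30 in Cacnb4 and -0.24 ± 0.36 in Cacng2. In Scn1a and Cacnb2, the risers, it was -0.12 ± 0.28 and -0.22 ± 0.24.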

How the data were processed

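The authors deposited 4 tables, 1 per comparison, of log2 CPM (read counts relative to library depth, on a log2 scale) for 10 libraries each. The aligner, counting, use of strand and annotation are not given in the sources used here; the build is mm10, per the submitters' processing notes. Among values of up to 500 reads, nearly all lowest and highest values of a gene and group of 5 lay where clipping at the 10th and 90th percentile puts them (weights 0.6 and 0.4). For values above 500 reads the same clipping was assumed. The clipping was inferred from the values and undone: 99.91% to 99.99% of values per library then gave whole reads (within 0.05 reads, up to 500 reads), against 45.5% to 92.8% before.

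Each comparison was fitted in its own table with limma 3.58.1 in R 4.3.3 (eBayes with trend), without block or batch term, two-sided, with Benjamini-Hochberg adjustment over all genes and a threshold of 0.05. The interaction was fitted to the recovered reads of all libraries, as log2 CPM with prior count 2 and with culture as a block (consensus correlation -0.19). In simulated data for OGD_WT against N_WT (14235 genes, 200 changed), restored values recovered 96.4% of 2-fold and 58.4% of 1.5-fold changes. False calls were 3.6% with restored and 29.3% with clipped values. Restoring inverts the simulated clipping, so restored and unclipped values gave the same rates by construction. The simulated libraries were independent, of equal spread and without batches, unlike these data, so the rates do not carry over to them. N and OGD libraries of the same number share genotype label and batch, which pairs them by label. Their deviations correlated between -0.74 and 0.06, mostly negatively and in part strongly. P-values measure the spread between these libraries taken as independent, which they may not be.

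The channel genes, lists and markers were chosen with earlier results of these data known. Some genes that meet the symbol rule are not reported here and are left out of every count of channel genes, while tests and adjustment ran over all genes. Per-library values are given for members called with at least a 2-fold difference; Scn1a, Cacna2d1, Cacnb2 and Cacna1e were added after their values were seen. From each partner list up to 2 called genes per direction, those with the greatest change in WT, are named. Positions and exon lengths are from GENCODE M21, as the union of exons of protein-coding transcripts, in place of the protein lengths first planned; intronic reads of total RNA could shift levels per length. Alternatives were the values as deposited, replicate block, batch as covariate, batch subsets, median centring, a filter on low values, library weights, limma without trend, prior counts, voom and leaving out each library.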

Additional observations from a re-analysis of the deposited data

Results flagged for a closer look

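In 8 of 112 gene and group combinations of the channel genes, 1 library lay far from the other 4, where chance would flag about 1 in 20, or 5.6. In N_KO, replicate 4 was low for Cacna1h (5.07 log2 CPM, others 5.70 to 5.84) and Cacnb3 (5.15, others 5.77 to 5.90). In OGD_KO, replicate 4 was high for Cacnb2 (5.24, others 4.69 to 4.83) and Scn3a (6.85, others 6.25 to 6.41). In N_KO, replicate 2 was low for Scn2a (8.02, others 8.37 to 8.50) and Scn8a (6.99, others 7.30 to 7.34). In N_WT, replicate 5 was low for Cacnb1 (4.84, others 5.47 to 5.65) and replicate 4 was high for Scn2a (8.81, others 8.23 to 8.37). These libraries carried the batch labels 3.1 or 3.3, the batches with the wide spread.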

How the results depend on the processing

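The number of channel genes called was 13 in OGD_WT against N_WT and 11 in OGD_KO against N_KO. It stayed between 10 and 14 and between 10 and 13 when 1 library was left out. In N_KO against N_WT, OGD_KO against OGD_WT and the interaction it was 0 in each such fit. With library weights, whose estimation stopped before convergence, the counts were 24, 18, 1 (Cacna2d3) and 10 in the 4 comparisons, where 86.5%, 73.6%, 6.54% and 33.5% of all genes were called; the cause was not tested. In batch 3 cultures alone the KO count was 6 (16.3% of all genes), from 6 libraries, and in batches 1, 2 and 3.2 alone it was 18 (56.8% of all genes); the cause was not tested. In batch 3.3 alone the WT count was 5 (10.7% of all genes) and in batch 3.1 alone the KO count was 0 (5.47% of all genes; 7 at an unadjusted p under 0.05), each from 4 libraries; both knockout comparisons gave 0 in either batch (0 to 3 members at an unadjusted p under 0.05; 3 libraries each, so a lone library was assumed to vary like the other group). With the clipping kept, 16 and 13 members were called, and over all genes 58.2% and 55.8%. With the replicate block the counts were 12 and 9 (39.9% and 33.6% of all genes), with 1 member higher in KO in place of 3, and 0 in both knockout comparisons. Of 368 recomputed log2 fold changes of the 8 members shown per library and called in both genotypes, 354 kept direction and call, 14 kept the direction and lost the call (Scn1a and Cacnb2 in KO, given above, and 11 values within batch 3.1 or 3.3 alone) and 0 reversed. Leaving out 1 library ended the calls of Cacna1g in both genotypes and of Cacna2d2 and Cacnb1 in WT. The fits on batches 1, 2 and 3.2 alone and within batch 3.1 or 3.3 were added after results were seen. Scn9a rests on 8 to 45 reads per library in the KO comparison, so small differences in it were not detectable.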
